A study of Mus musculus with 60 samples.

Results

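Arc, Npas4, Nptx2, Homer1, Sik1, Klf10, Klf2, Ier2 and Btg2 are genes whose transcription is switched on in neurons by synaptic activity. They were taken by symbol through the GENCODE M21 annotation, and 9 of the 18088 genes in the table of normalised read counts carry these names. All 9 passed the filter on low values and were tested.

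Calcium entering a neuron through NMDA receptors and voltage-gated channels activates kinases that phosphorylate CREB and the SRF partner Elk1, transcription factors already present in the nucleus. Those factors start a first wave of genes within minutes, without new protein synthesis. Part of that wave encodes transcription factors (Npas4, Klf10, Klf2, Ier2), part encodes signalling and growth regulators (Sik1, Btg2), and part encodes synaptic proteins (Arc, Nptx2, the short form of Homer1) that adjust the strength of the synapse that was active.

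RNA came from the prefrontal cortex of C57BL/6J mice at postnatal day 25. Het mice carried 1 copy of the C456Y missense allele of Grin2b, a subunit gene of the NMDA receptor, and WT mice carried none. Pups took in fluoxetine (a serotonin reuptake inhibitor), lithium (a mood stabiliser) or vehicle with the milk of the dam for 3 weeks, from postnatal day 3 to 24, so the mice of every group were nursed by a dosed or vehicle-treated dam until the day before dissection. The labels do not give the dose that reached each pup. The groups were Het fluoxetine, Het lithium, Het vehicle, WT fluoxetine, WT lithium and WT vehicle, with 10 libraries each, 5 from females and 5 from males. The labels do not say whether replicates were separate animals or litters, so the p-values measure the spread between these libraries, which may in part be technical.

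Libraries held 23901635 to 37769417 recovered reads. The dissection label was checked against markers. The cortical excitatory marker Slc17a7 (38827.8 to 68011.8 normalised reads) was present in every library. Drd2, a striatal marker, had a median of 41.1 and a highest value of 604.5, and the choroid plexus marker Ttr a median of 12 and a highest value of 2243.9. Both were thus far above the median in at least 1 library. Summed over 4 striatal markers, the highest library was in WT lithium (16870), against highest values of 8656 in WT fluoxetine and 4088 in WT vehicle. Summed over 3 choroid plexus markers it was also in WT lithium (2359), against 1013 in WT fluoxetine and 196.6 in WT vehicle. The part of such tissue in the WT lithium results was not tested. A set of 10 libraries stood apart: 9 of the 10 Het fluoxetine libraries (all but male replicate 1) and WT vehicle female replicate 2 had a mean log2 level of 1.78 to 3.15 over 16 pseudogenes, against 4.60 to 7.14 in the other 50. The 16 pseudogenes were chosen for differing over 4-fold between Het and WT fluoxetine libraries. Their difference between those 2 groups was thus fixed by the choice. In the Het fluoxetine libraries the deviation of a gene from its mean over all libraries also correlated with its GC content, at r from -0.42 to -0.14 across genes. Such correlations also occurred elsewhere. They ran from -0.697 to 0.291 in WT lithium, -0.453 to 0.286 in WT vehicle and -0.315 to 0.475 in Het lithium libraries. In Het vehicle libraries they ran from -0.199 to 0.314, and in WT fluoxetine libraries from -0.0142 to 0.36. The Het fluoxetine calls of the 9 genes are therefore given with and without a model term for the set of 10 libraries low in pseudogenes (the library term). Those of cell type markers and of other genes are given only without it. In whole tissue, fewer cells of a type and less RNA per cell cannot be told apart.

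RefSeq promoters (GRCm38.p6) were found for 4 of the 9 genes: Btg2, Npas4, Homer1 and Klf2. A promoter is shown for each of the 4, and they were not chosen by expression. Each stretch is the 250 bases before the start site, 5′ to 3′ on the strand of the gene. Capitals mark TGACG on either strand, the half-site of the cyclic AMP response element to which CREB binds, and in Btg2 the full element TGACGTCA, which contains both half-sites.
Btg2: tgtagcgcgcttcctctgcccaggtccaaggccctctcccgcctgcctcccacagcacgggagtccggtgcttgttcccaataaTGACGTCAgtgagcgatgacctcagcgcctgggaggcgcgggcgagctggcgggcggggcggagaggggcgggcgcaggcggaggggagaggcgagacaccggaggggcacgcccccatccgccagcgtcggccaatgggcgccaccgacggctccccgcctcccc
Npas4: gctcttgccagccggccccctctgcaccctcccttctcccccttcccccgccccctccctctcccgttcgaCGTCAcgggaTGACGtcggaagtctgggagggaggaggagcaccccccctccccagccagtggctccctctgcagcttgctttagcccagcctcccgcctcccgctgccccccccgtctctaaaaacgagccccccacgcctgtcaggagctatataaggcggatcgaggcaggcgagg
Homer1: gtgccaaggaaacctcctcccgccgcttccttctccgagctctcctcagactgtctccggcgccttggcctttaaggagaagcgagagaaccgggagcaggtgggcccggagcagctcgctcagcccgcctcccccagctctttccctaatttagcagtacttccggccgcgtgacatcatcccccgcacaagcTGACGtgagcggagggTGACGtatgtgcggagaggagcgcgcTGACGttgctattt
Klf2: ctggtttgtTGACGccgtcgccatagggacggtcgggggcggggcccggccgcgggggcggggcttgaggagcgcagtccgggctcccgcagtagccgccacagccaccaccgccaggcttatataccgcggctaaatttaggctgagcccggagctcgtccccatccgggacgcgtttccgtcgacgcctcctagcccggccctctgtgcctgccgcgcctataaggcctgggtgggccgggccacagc

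The windows are chr1:134079156-134079405 (minus strand) for Btg2, chr19:4989972-4990221 (minus strand) for Npas4, chr13:93303507-93303756 (plus strand) for Homer1, which has a further start site downstream, and chr8:72318812-72319061 (plus strand) for Klf2. Counted from the start site, the full element of Btg2 begins at -166. Npas4 has half-sites at -179 and -169, Homer1 at -56, -40 and -14, and Klf2 at -241. Among 32851 RefSeq promoter windows of the same length, 1.55% contain the full element and 17.8% a half-site. These are matches of letters and say nothing of binding. GENCODE M21 also annotates starts upstream of the RefSeq ones for Npas4, Homer1 and Klf2.

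In WT vehicle libraries the level per kilobase of the longest transcript was highest for Arc (mean 1230 normalised reads per kb) and Homer1 (1125). Nptx2 followed at 657.3 and Klf10 at 329.2. The remaining members lay close together: Npas4 at 167.6, Klf2 at 152.1, Btg2 at 141.4, Ier2 at 128.6 and Sik1 at 114.3. Homer1 is by this scale among the most abundant, but the table gives 1 value per gene, so its activity-induced short form and its constitutive long forms are summed. Its longest transcript also had the lowest GC content of the members, 36.9%, against 61.6% for Klf2 and 60.9% for Ier2.

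**Figure D1:**
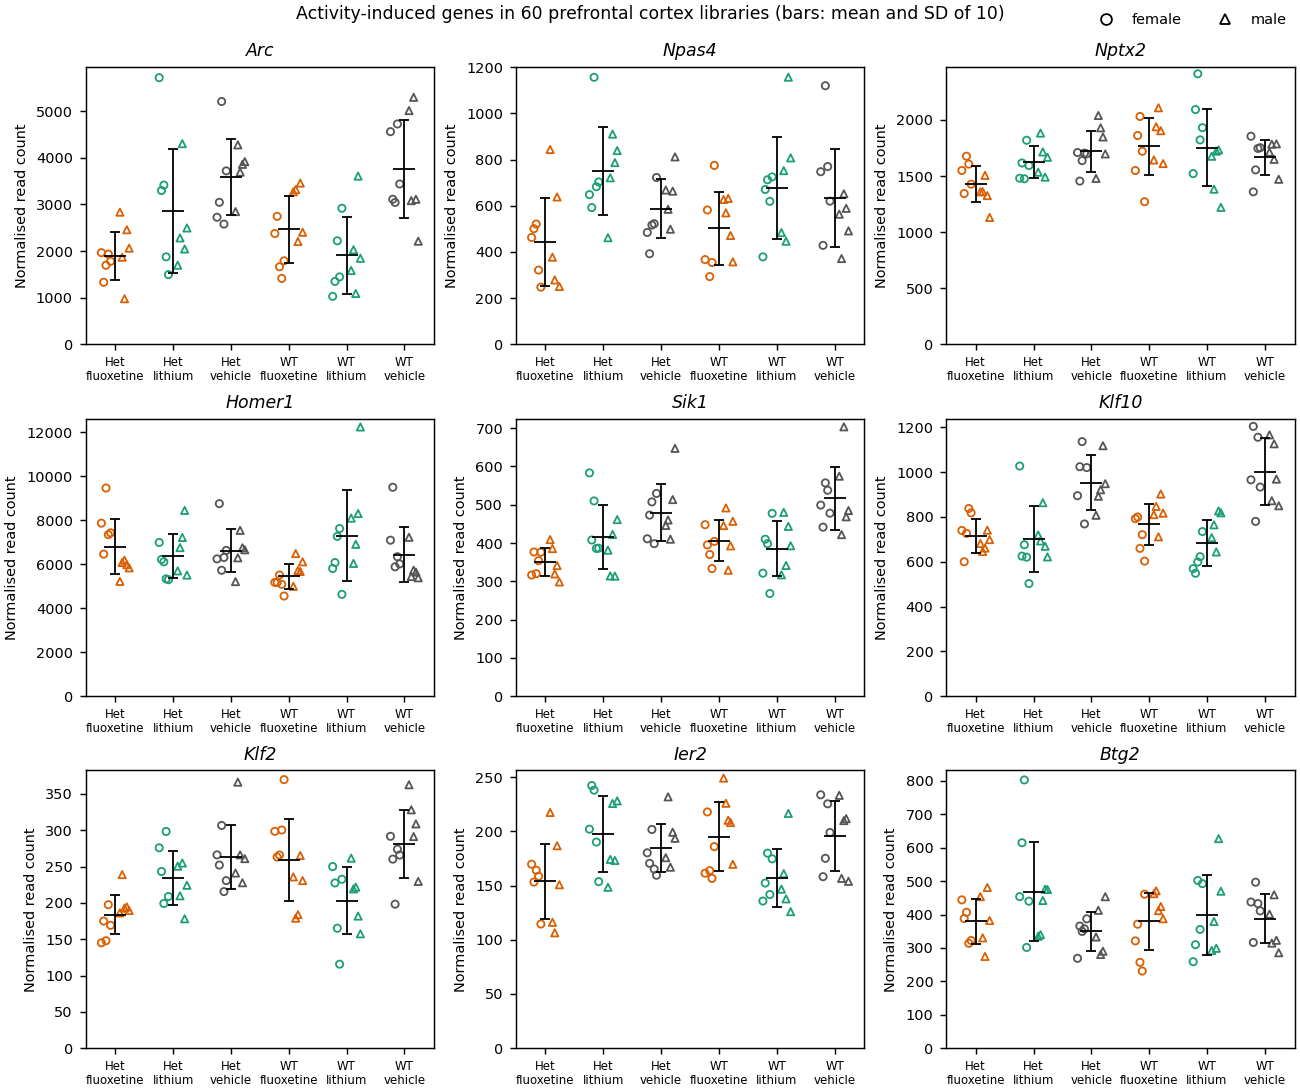
Normalised read counts of the 9 genes (vertical axes, each from 0) in the 6 genotype-by-drug groups, with circles for female and triangles for male libraries and bars for the mean and SD of 10. Arc lay between 979.2 and 2833.8 in Het fluoxetine libraries and between 2578.1 and 5205.7 in Het vehicle libraries, while Btg2 overlapped widely across groups.

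The first question was whether either drug moved these genes within a genotype. In Het mice, 6 of the 9 were lower with fluoxetine than with vehicle (Arc, Sik1, Klf10, Klf2, Nptx2 and Ier2) and 0 were higher (limma on log2(value + 1), Benjamini-Hochberg adjusted p below 0.05). At that threshold 19.9% of all genes were lower and 19.1% higher. With the library term 0 of the 6 calls remained, and the calls over all genes fell from 6952 to 49. In WT mice, 2 were lower with fluoxetine (Klf10 and Sik1) and 0 higher, against 4.08% of all genes lower and 4.35% higher. With lithium 1 was lower in Het mice (Klf10) and 0 higher, against 0.5% and 0.483% of all genes. In WT mice 5 were lower with lithium (Arc, Klf10, Sik1, Klf2 and Ier2) and 0 higher, against 9.87% and 9.34% of all genes.

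The median log2 fold of the 9 genes was -0.41 for fluoxetine in Het mice (0.00 over all genes tested), -0.22 for fluoxetine in WT mice (0.00 over all genes), -0.08 for lithium in Het mice (0.00 over all genes) and -0.31 for lithium in WT mice (0.00 over all genes). By gene, Klf10 was lower in all 4 drug comparisons, Sik1 in 3, Arc, Klf2 and Ier2 in 2 each, Nptx2 in 1, and Npas4, Homer1 and Btg2 in 0. Within a genotype both drugs were set against the same vehicle libraries, so the counts for the 2 drugs are not independent.

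**Figure D2:**
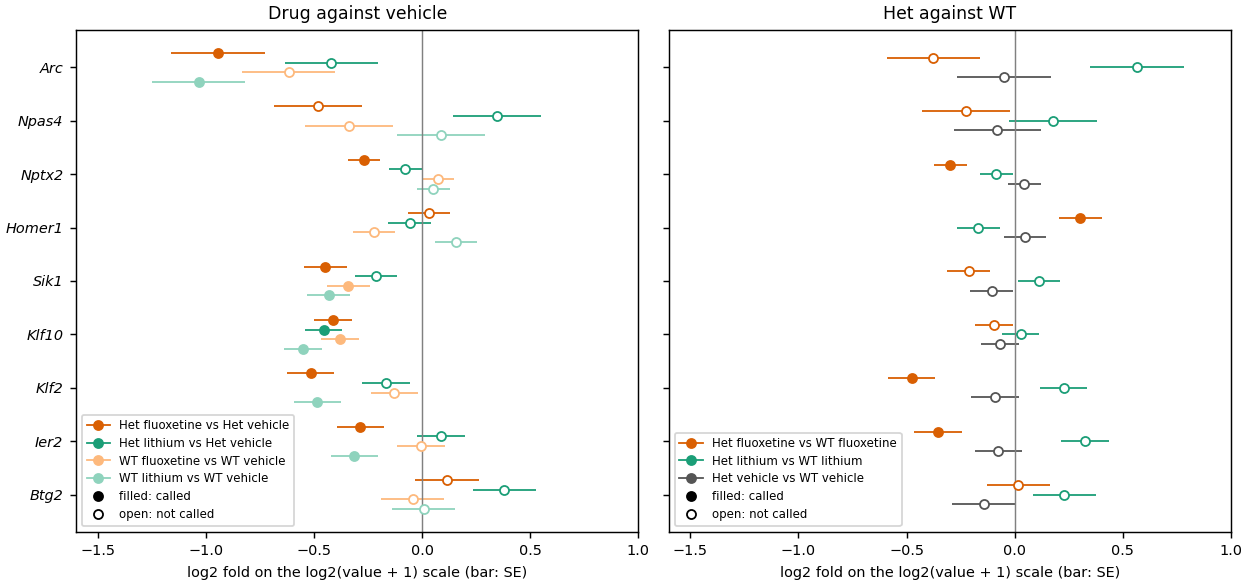
Log2 fold (horizontal axis, on the log2(value + 1) scale, bars for the SE) of each gene for drug against vehicle (left) and Het against WT (right), filled where the adjusted p was below 0.05. Klf10 is filled in all 4 drug comparisons, between -0.55 and -0.38, and no gene is filled for Het vehicle against WT vehicle.

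Among the synaptic proteins, Arc had the largest folds of the 9 genes with fluoxetine in Het mice and with lithium in WT mice. Arc (chromosome 15, 74669083 to 74672570, minus strand) encodes a capsid-like protein that drives internalisation of AMPA receptors. In Het fluoxetine libraries its lowest, median and highest values were 979.2, 1902.3 and 2833.8 normalised reads, against 2578.1, 3705.5 and 5205.7 in Het vehicle libraries. The groups overlapped, but 9 of the 10 fluoxetine libraries lay below the lowest vehicle library. The log2 fold was -0.94 (SE 0.22, limma adjusted p = 0.000574), with all 10 of 10 libraries below the vehicle mean of their sex. In WT lithium libraries Arc was at 1030.2, 1714.8 and 3607.2, against 2212.0, 3274.7 and 5295.9 in WT vehicle libraries. Here 7 of the 10 lithium libraries lay below every vehicle library, and the log2 fold was -1.03 (SE 0.22, limma adjusted p = 0.000664, 9 of 10 libraries lower).

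The remaining Arc comparisons did not pass the threshold. WT fluoxetine libraries held 1414.4, 2390.4 and 3457.7, against the same WT vehicle values, a log2 fold of -0.62 (SE 0.22, limma adjusted p = 0.0655). This value sits near the threshold: leaving out WT vehicle male replicate 5 gave -0.70 (adjusted p = 0.036), and a fit to the compared groups alone gave the same fold with an adjusted p of 0.03. Het lithium libraries spread widely, from 1495.9 through a median of 2388.8 to 5716.1, a CV of 46.7%, against a CV of 22.6% in Het vehicle libraries. The log2 fold of Het lithium against Het vehicle was -0.42 (SE 0.22, limma adjusted p = 0.383).

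Nptx2 (chromosome 5, 144545902 to 144557478, plus strand) encodes neuronal pentraxin 2, a secreted protein that gathers AMPA receptors at excitatory synapses on interneurons. Of the 4 drug comparisons it was called in 1, fluoxetine in Het mice, where its values were 1130.6, 1393.9 and 1676.4, against 1455.0, 1700.2 and 2039.1 in Het vehicle libraries. The fluoxetine libraries were lower with overlap, and 6 of 10 lay below the lowest vehicle library (log2 fold -0.27, SE 0.075, limma adjusted p = 0.00386, 9 of 10 lower). In WT mice it had 1271.3, 1790.7 and 2107.9 with fluoxetine and 1359.0, 1729.3 and 1854.3 with vehicle (log2 fold 0.07, limma adjusted p = 0.621). The difference between the fluoxetine effect in Het and in WT mice was tested directly and was -0.34 (SE 0.107, limma adjusted p = 0.0163). Of the 9 genes it was the 1 called for this interaction, where 12% of all genes were lower and 11.9% higher. It did not pass after GC correction (-0.13, adjusted p = 0.422), with the library term (-0.15, adjusted p = 0.908) or with the Rps6-ps4 term (-0.27, adjusted p = 0.418), and neither did any other of the 9.

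Homer1 (chromosome 13, 93299635 to 93405129, plus strand) encodes a scaffold that links group I metabotropic glutamate receptors to the postsynaptic density. No drug comparison within a genotype called it. Its values were 5224.4, 6324.0 and 9467.8 in Het fluoxetine, 5299.5, 6167.5 and 8450.3 in Het lithium and 5212.8, 6471.7 and 8756.6 in Het vehicle libraries, ranges that covered each other. In WT mice they were 4557.6, 5345.2 and 6488.0 with fluoxetine, 4634.2, 7090.3 and 12244.2 with lithium and 5388.1, 5952.5 and 9502.5 with vehicle. The highest of these, WT lithium male replicate 5, was also the library whose gene deviations had the most negative correlation with GC content, r = -0.697 across genes.

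Among the transcription factors, Klf10 was called in all 4 drug comparisons. Klf10 (chromosome 15, 38291463 to 38300706, minus strand) encodes a zinc-finger repressor first described as a TGF-β-inducible early gene. Its values in Het mice were 600.0, 712.7 and 837.5 with fluoxetine, 502.9, 672.5 and 1026.9 with lithium and 768.7, 934.7 and 1135.9 with vehicle. With each drug 8 of the 10 libraries lay below the lowest vehicle library. The log2 fold was -0.41 for fluoxetine (SE 0.088, limma adjusted p = 0.000231, 10 of 10 lower) and -0.46 for lithium (SE 0.088, limma adjusted p = 0.0043, 9 of 10 lower).

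In WT mice Klf10 had 602.9, 796.0 and 902.0 with fluoxetine, 548.6, 675.7 and 826.9 with lithium and 780.0, 967.1 and 1203.9 with vehicle. The lithium libraries were the further displaced, 8 of 10 lying below every vehicle library, against 4 of 10 with fluoxetine. The log2 fold was -0.38 for fluoxetine (SE 0.088, limma adjusted p = 0.00267) and -0.55 for lithium (SE 0.088, limma adjusted p = 2.08e-05), each with 10 of 10 libraries lower. With each of the 20 libraries of a comparison left out in turn, Klf10 kept its call in all 4, with log2 folds between -0.59 and -0.35.

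Klf2 (chromosome 8, 72319033 to 72321656, plus strand) encodes a related zinc-finger factor that blood flow induces in endothelial cells. Het fluoxetine libraries had 145.0, 187.8 and 238.9, against 215.5, 256.4 and 366.2 in Het vehicle libraries, and 9 of 10 lay below every vehicle library (log2 fold -0.51, SE 0.109, limma adjusted p = 0.000211, 10 of 10 lower). WT lithium libraries had 115.6, 220.4 and 261.6, against 198.2, 282.6 and 362.6 in WT vehicle libraries, with wider overlap (log2 fold -0.49, SE 0.109, limma adjusted p = 0.00129, 10 of 10 lower). WT fluoxetine libraries, at 178.9, 264.1 and 369.7, did not pass against WT vehicle (log2 fold -0.13, SE 0.109, limma adjusted p = 0.531), nor did Het lithium, at 178.1, 233.7 and 298.3, against Het vehicle (-0.17, SE 0.109, limma adjusted p = 0.522).

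Because endothelial cells also express Klf2, a list of 12 endothelial markers is given beside it. Of the 12, 6 were lower with fluoxetine in Het mice (19.9% of all genes were), 6 with fluoxetine in WT mice (4.08% of all genes), 1 with lithium in Het mice (0.5% of all genes) and 10 with lithium in WT mice (9.87% of all genes), and 0 were higher in any of the 4. The median log2 fold of the 12 was -0.18 and -0.24 with fluoxetine in Het and WT mice, and -0.17 and -0.33 with lithium. Cldn5, a tight-junction protein of brain capillaries, lay further from 0, with log2 folds of -0.62 (limma, SE 0.091) for fluoxetine in Het mice and -0.64 (SE 0.091) for lithium in WT mice. The summed level of the list ran from 9448 to 12050 in Het fluoxetine, 9722 to 12200 in Het lithium, 11220 to 15100 in Het vehicle, 9913 to 16020 in WT fluoxetine, 9562 to 11900 in WT lithium and 10650 to 14320 in WT vehicle libraries. None of the 12 markers was at 0 in any library, and their part in the Klf2 result was not tested. In WT lithium libraries 6 of 7 microglial, 4 of 5 astrocyte and 5 of 5 pericyte and smooth muscle markers were lower as well. None was lower among 5 oligodendrocyte (median log2 fold -0.30), 6 excitatory neuron, 6 inhibitory neuron, 3 choroid plexus and 4 striatal markers. Of the inhibitory neuron markers 1 was higher.

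Npas4 (chromosome 19, 4984355 to 4990316, minus strand) encodes a factor that is induced by calcium entry in neurons and regulates inhibitory synapses. It was not called against vehicle for either drug. In Het mice it had 247.9, 420.3 and 843.7 with fluoxetine, 461.8, 712.1 and 1156.2 with lithium and 392.4, 553.6 and 811.6 with vehicle. The fluoxetine values ran lowest and the lithium values highest, with overlap of all 3 ranges. The log2 fold was -0.48 for fluoxetine (SE 0.20, limma adjusted p = 0.0548) and 0.34 for lithium (SE 0.20, limma adjusted p = 0.462). The fluoxetine value passed when 1 of 6 libraries was left out: Het fluoxetine female replicates 2 and 3 or male replicates 1 and 4, or Het vehicle female replicate 2 or male replicate 3, with log2 folds between -0.60 and -0.52. It did not pass in any of the 10 other settings, and its sign turned to 0.47 (SE 0.35, adjusted p = 0.754) with the library term and 0.34 (SE 0.30, adjusted p = 0.587) with the Rps6-ps4 term described below. Its WT values were 293.6, 520.4 and 774.8 with fluoxetine, 378.9, 691.7 and 1156.9 with lithium and 371.6, 604.6 and 1119.8 with vehicle.

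Ier2 (chromosome 8, 84661331 to 84662852, minus strand), a nuclear immediate-early protein, was called close to the threshold in both drug-against-vehicle comparisons that called it. Het fluoxetine libraries had 106.4, 155.9 and 217.4, against 159.5, 178.0 and 231.8 in Het vehicle libraries (log2 fold -0.29, SE 0.11, limma adjusted p = 0.0338, 9 of 10 lower). WT lithium libraries had 125.9, 149.5 and 216.5, against 153.9, 204.4 and 233.7 in WT vehicle libraries (log2 fold -0.31, SE 0.11, limma adjusted p = 0.0363, 9 of 10 lower). In each comparison 6 of 10 drug libraries lay below the lowest vehicle library. The Het fluoxetine call was lost without Het fluoxetine female replicate 5 (adjusted p = 0.0885), male 2 (0.0838) or male 3 (0.101), and without Het vehicle female 3 (0.0675) or male 2 (0.0738). edgeR's quasi-likelihood test on recovered reads gave an adjusted p of 0.0511 there. The WT lithium call was lost in 11 of 20 fits that left out 1 library, those without WT lithium female 1 or 4 or male 1, 3 or 5, or WT vehicle female 1, 4 or 5 or male 1, 3 or 4, with adjusted p up to 0.0826. It was also lost after GC correction (adjusted p = 0.168), with the groups alone (0.0719) and without the 3 libraries of largest residuals (0.078).

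Of the signalling and growth regulators, Sik1 (chromosome 17, 31844250 to 31855804, minus strand), a salt-inducible kinase that phosphorylates the CREB coactivators of the CRTC family and so feeds back on CREB, fell in 3 drug comparisons. In Het mice it had 298.4, 347.5 and 408.8 with fluoxetine, 313.6, 397.2 and 583.0 with lithium and 398.2, 466.5 and 647.0 with vehicle. With fluoxetine, 9 of 10 libraries lay below every vehicle library (log2 fold -0.45, SE 0.099, limma adjusted p = 0.000334). With lithium the log2 fold was -0.21 (SE 0.099, limma adjusted p = 0.316). In WT mice Sik1 had 329.1, 399.5 and 491.6 with fluoxetine, 268.2, 395.6 and 480.0 with lithium and 421.9, 491.9 and 703.2 with vehicle. It was lower with both drugs, with log2 folds of -0.34 for fluoxetine (SE 0.099, limma adjusted p = 0.0198) and -0.43 for lithium (SE 0.099, limma adjusted p = 0.00154), with 10 of 10 libraries lower in each. The WT fluoxetine call was lost without WT fluoxetine male replicate 3 (adjusted p = 0.0561) or WT vehicle male replicate 3 (adjusted p = 0.062).

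Btg2 (chromosome 1, 134075170 to 134079120, minus strand), an antiproliferative protein that recruits the CCR4-NOT deadenylase, was not called in any comparison. It had 274.5, 385.0 and 480.8 in Het fluoxetine, 301.5, 447.8 and 803.0 in Het lithium and 268.9, 353.3 and 453.4 in Het vehicle libraries. WT libraries had 230.8, 399.6 and 470.9 with fluoxetine, 258.8, 367.3 and 627.3 with lithium and 285.7, 406.0 and 496.8 with vehicle. Its largest fold against vehicle was 0.38 on the log2 scale, for lithium in Het mice (SE 0.146, limma adjusted p = 0.208, unadjusted p = 0.012). The fluoxetine effect in WT mice differed between females and males by -0.67 (SE 0.29, limma adjusted p = 0.94, unadjusted p = 0.0253).

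The next question was whether the Grin2b allele moved these genes. In vehicle, limma called 0 of 9 between Het and WT mice, where 0.073% of all genes were lower and 0.517% higher. None reached an unadjusted p of 0.05, and edgeR also called 0. The log2 folds lay between -0.14 (Btg2, SE 0.146) and 0.05 (Homer1, SE 0.097). Arc averaged 3586 ± 810.3 normalised reads in Het vehicle and 3759 ± 1044 in WT vehicle libraries (SD, n = 10 each), a log2 fold of -0.05 with SE 0.22. With lithium in both genotypes limma and edgeR also called 0, against 0.0112% of all genes lower and 0.0168% higher, while 3 had an unadjusted p below 0.05: Ier2 (log2 fold 0.32), Arc (0.57) and Klf2 (0.23). The share of all genes at that unadjusted level is not given, so the 3 cannot be read as an excess.

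With fluoxetine in both genotypes, 3 genes were lower in Het mice, against 19.9% of all genes, and 1 was higher, against 19.6%. Klf2 had 145.0, 187.8 and 238.9 in Het fluoxetine libraries, against 178.9, 264.1 and 369.7 in WT fluoxetine libraries (log2 fold -0.48, SE 0.109, limma adjusted p = 0.00049, 9 of 10 lower). Ier2 had 106.4, 155.9 and 217.4, against 156.6, 197.0 and 249.1 (-0.36, SE 0.11, limma adjusted p = 0.00774), and Nptx2 1130.6, 1393.9 and 1676.4, against 1271.3, 1790.7 and 2107.9 (-0.30, SE 0.075, limma adjusted p = 0.00139). Homer1 went the other way, with 5224.4, 6324.0 and 9467.8, against 4557.6, 5345.2 and 6488.0 (0.30, SE 0.097, limma adjusted p = 0.0107). In each case the Het values were displaced with overlap. With the GC correction, the library term or the Rps6-ps4 term, 0 of these 4 calls remained. Over all genes this comparison had 7042 calls, and 7 to 7652 under the alternatives other than leaving out 1 library. The library term turned the sign of Ier2 (0.12) and of Homer1 (-0.054). The Klf2 fold was -0.55 with the library term (SE 0.21, adjusted p = 0.663), -0.65 with the Rps6-ps4 term (SE 0.18, adjusted p = 0.122) and -0.19 after GC correction (SE 0.095, adjusted p = 0.19).

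Whether a drug's effect differed by genotype was tested as an interaction. For fluoxetine the 1 call was Nptx2, given above. Klf2 came closest otherwise, at -0.39 (SE 0.154, limma adjusted p = 0.0596), and passed when any 1 of 8 of the 40 libraries was left out: Het fluoxetine female 4 or male 2, Het vehicle female 4 or male 4, WT fluoxetine male 2 or 3, or WT vehicle female 1 or male 1, each giving 2 calls in place of 1. It also passed with the groups alone, in edgeR and without the 3 libraries of largest residuals (adjusted p = 0.0223, 0.0482 and 0.0463). It was -0.12 after GC correction (adjusted p = 0.645), -0.46 with the library term (adjusted p = 0.681) and -0.58 with the Rps6-ps4 term (adjusted p = 0.225). For lithium, limma and edgeR called 0 of 9, against 0.0618% of all genes lower and 0.00561% higher. An unadjusted p below 0.05 was found for 2, given without the share of all genes at that level. Arc's lithium effect was -0.42 in Het and -1.03 in WT mice, and the difference of 0.61 (SE 0.31, limma adjusted p = 0.453) did not pass. The calls of Arc, Sik1, Klf2 and Ier2 in WT lithium and not in Het lithium libraries therefore do not show that the genotypes responded differently.

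The drugs were also set against each other within a genotype. In Het mice 4 genes were lower with fluoxetine than with lithium and 0 higher, where 16.7% of all genes were lower and 16.1% higher: Npas4 (log2 fold -0.83, SE 0.20, limma adjusted p = 0.00172, 9 of 10 lower), Ier2 (-0.37, SE 0.11, adjusted p = 0.00735), Klf2 (-0.35, SE 0.109, adjusted p = 0.0118) and Nptx2 (-0.19, SE 0.075, adjusted p = 0.0446). Npas4 values were 247.9, 420.3 and 843.7 with fluoxetine, against 461.8, 712.1 and 1156.2 with lithium, and 5 of 10 fluoxetine libraries lay below every lithium library. The Nptx2 call was lost in 11 of 20 fits that left out 1 library. GC correction left 1 of the 4 calls, Npas4 (-0.71, adjusted p = 0.0161), and the library term and the Rps6-ps4 term left 0. Over all genes this comparison had 5845 calls, and 9 to 6655 under the alternatives other than leaving out 1 library. The library term turned the sign of Npas4 (0.13) and Ier2 (0.10). The Klf2 fold was -0.42 with the library term (SE 0.21, adjusted p = 0.768) and -0.52 with the Rps6-ps4 term (SE 0.18, adjusted p = 0.16), against -0.13 after GC correction (adjusted p = 0.392).

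In WT mice Homer1 was lower with fluoxetine than with lithium, at 4557.6, 5345.2 and 6488.0, against 4634.2, 7090.3 and 12244.2 (log2 fold -0.38, SE 0.097, limma adjusted p = 0.00739, 10 of 10 lower), where 7.14% of all genes were lower. Klf2 was higher, at 178.9, 264.1 and 369.7, against 115.6, 220.4 and 261.6 (0.36, SE 0.109, limma adjusted p = 0.0234, 8 of 10 higher), where 5.92% of all genes were higher. The Klf2 call was lost without WT fluoxetine female 5 or male 4, or WT lithium female 3, female 4 or male 5, with adjusted p between 0.0516 and 0.0833. A fit to these groups alone and the GC correction each left 1 call, with Klf2 at an adjusted p of 0.11 and 0.164. Homer1 had SDs of 569.5 with fluoxetine and 2075 with lithium.

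Differences of these effects between the sexes were tested in 7 comparisons, 63 tests over the 9 genes, of which limma called 1 and 10 had an unadjusted p below 0.05. The share of all genes at that unadjusted level is not given, so the 10 cannot be read as an excess. The call was Homer1 for lithium in WT mice, where 4.83% of all genes were lower and 4.81% higher. Its log2 difference from vehicle was -0.15 in females and 0.46 in males, and the difference between the sexes was -0.61 (SE 0.195, limma adjusted p = 0.0404). Female values were 4634.2, 6080.2 and 7626.8 with lithium, against 5886.6, 6345.0 and 9502.5 with vehicle, and male values 6040.4, 8098.8 and 12244.2 with lithium, against 5388.1, 5645.6 and 7228.6 with vehicle. The count of calls was 0 without any 1 of WT lithium female 2, female 5 or male 5, or WT vehicle female 2 or male 2, 3, 4 or 5, and was 2 without WT lithium female 1. It was also 0 with the groups alone, after GC correction, with the library or the Rps6-ps4 term and without the 3 libraries of largest residuals. Over all genes this comparison had 1716 calls, but 0 with the groups alone and 1 without those 3 libraries.

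Klf2 had no called sex difference, but its values under fluoxetine were further apart in females than in males. They were 145.0, 169.1 and 197.5 in Het females, against 263.1, 298.5 and 369.7 in WT females. In males they were 186.2, 192.7 and 238.9 in Het, against 178.9, 230.7 and 265.2 in WT. The difference of -0.72 between the sexes (SE 0.218, unadjusted p = 0.0017) did not pass over all genes (limma adjusted p = 0.197).

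Because 9 of 10 Het fluoxetine libraries belonged to the set low in pseudogenes, the group and the set can be separated only through Het fluoxetine male replicate 1 and WT vehicle female replicate 2. In that Het fluoxetine library Arc was at 2833.8, against 979.2 to 2456.9 in the other 9 and 2578.1 to 5205.7 in Het vehicle libraries. It was also the highest of its group for Npas4 (843.7, against 247.9 to 638.2), Sik1 (408.8, against 298.4 to 385.5) and Ier2 (217.4, against 106.4 to 186.7), and the lowest for Homer1 (5224.4, against 5839.4 to 9467.8). Its Npas4 value was above every Het vehicle library (392.4 to 811.6). For Sik1 (398.2 to 647.0), Ier2 (159.5 to 231.8) and Homer1 (5212.8 to 8756.6) it was inside the Het vehicle range. Btg2 was at 453.6, against 268.9 to 453.4 in Het vehicle libraries. Nptx2 (1359.7, against 1130.6 to 1676.4), Klf10 (681.4, against 600.0 to 837.5) and Klf2 (186.2, against 145.0 to 238.9) were inside the range of the other 9 and below every Het vehicle library. WT vehicle female replicate 2 was the highest of its group for Homer1 (9502.5) and Klf10 (1203.9) and the lowest for Nptx2 (1359.0).

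With the library term, 0 of the 6 fluoxetine calls in Het mice remained. The log2 fold of Arc was then -0.49 (SE 0.40, limma adjusted p = 0.798), Sik1 -0.21 (SE 0.18), Nptx2 -0.10 (SE 0.14) and Ier2 0.19 (SE 0.19), a change of sign, as for the uncalled Npas4. Klf10 and Klf2 had folds at least as far from 0 as without the term, -0.57 (SE 0.16, adjusted p = 0.141) and -0.58 (SE 0.21, adjusted p = 0.298), with SEs above the 0.088 and 0.109 without it. A term for 11 libraries in which the pseudogene Rps6-ps4 had 0 reads, 9 of them Het fluoxetine, left 1 call, Klf2 (-0.69, SE 0.18, limma adjusted p = 0.0273). GC correction left 4: Arc (-0.75, adjusted p = 0.0105), Sik1 (-0.33, adjusted p = 0.0102), Klf10 (-0.46, adjusted p = 0.000217) and Klf2 (-0.29, adjusted p = 0.0236). Over all genes this comparison had 6952 calls, but 49 with the library term, 332 with the Rps6-ps4 term and 3493 after GC correction. The loss of calls was thus not particular to the 9 genes. The part of the library set in the Het fluoxetine results cannot be told apart from that of the drug with these libraries.

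**Figure D3:**
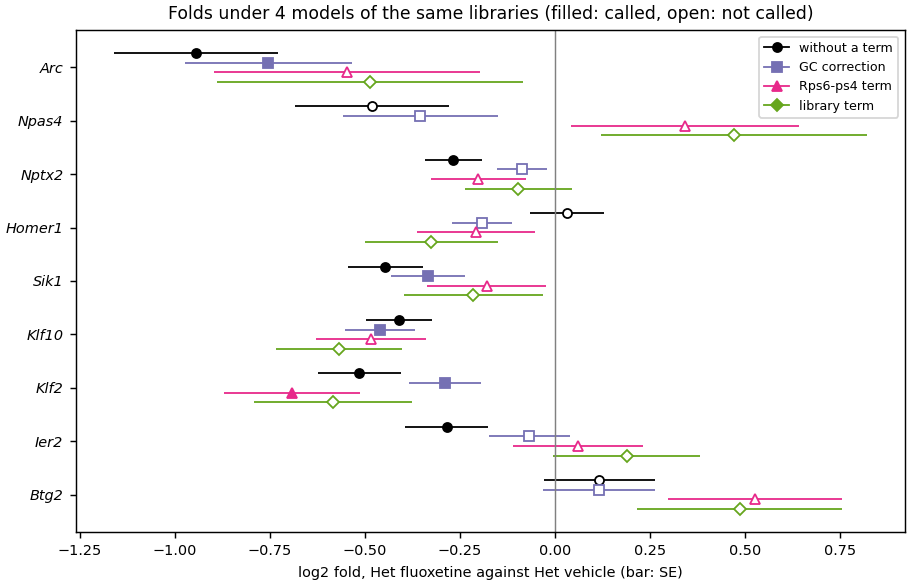
Log2 fold of each gene for Het fluoxetine against Het vehicle (horizontal axis, bars for the SE) without a term (black circles), after GC correction (squares), with the Rps6-ps4 term (triangles) and with the library term (diamonds), filled where the adjusted p was below 0.05. Klf10 stays between -0.57 and -0.41 in all 4 models, while Ier2 runs from -0.29 without a term to 0.19 with the library term.

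The other drug comparisons held few or no libraries of the set. With the library term the 5 WT lithium calls were kept, with log2 folds of -1.08 for Arc, -0.53 for Klf10, -0.48 for Klf2, -0.46 for Sik1 and -0.37 for Ier2 (limma adjusted p between 3.29e-05 and 0.00868). The WT fluoxetine calls of Klf10 (-0.36, adjusted p = 0.00486) and Sik1 (-0.37, adjusted p = 0.0117) were kept as well, and Arc was called in addition (-0.67, adjusted p = 0.0439). GC correction also called Arc (-0.65, adjusted p = 0.0418) and Homer1 (-0.24, adjusted p = 0.0423) there.

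The genes did not move as 1 block. Over the deviations of the 60 libraries from their 12 group means, the 36 pairs had a median Pearson r of 0.128, and 7 pairs were over 0.5. These correlations describe libraries that share depth and dissection, and carry no test. Npas4 and Btg2 varied most closely (r = 0.725), then Arc and Ier2 (0.717), Arc and Klf10 (0.714), Ier2 and Btg2 (0.636), Arc and Btg2 (0.631), Npas4 and Ier2 (0.63), and Arc and Sik1 (0.606). Homer1 and Klf2, the members of lowest and highest GC content, had the lowest r, -0.325. Klf10 was near 0 with Npas4 (-0.02) and Nptx2 (-0.03).

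**Figure D4:**
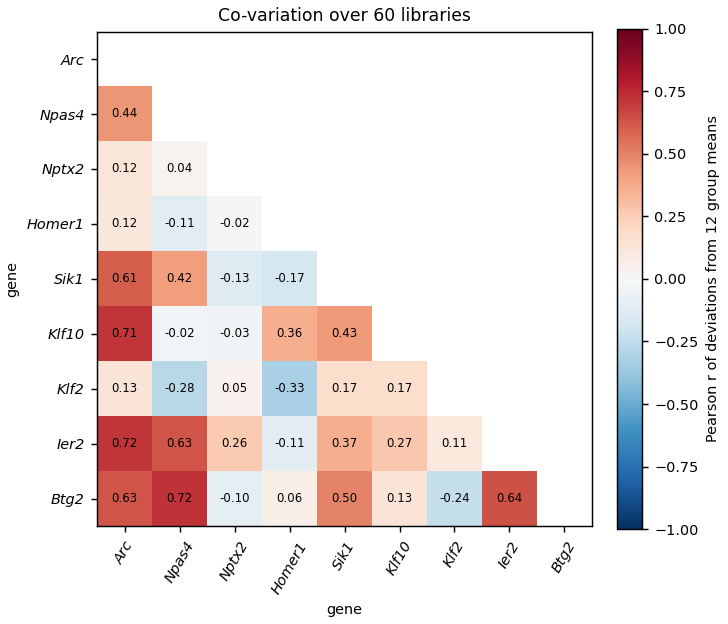
Pearson r between each pair of the 9 genes (rows and columns) over 60 libraries after subtracting 12 group means, with red for positive and blue for negative values. Pairs among Arc, Npas4, Ier2 and Btg2 run from 0.44 (Arc and Npas4) to 0.72, and Arc also has 0.71 with Klf10 and 0.61 with Sik1. Nptx2, Homer1 and Klf2 have no value over 0.5.

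The genes outside the 9 whose deviations followed Arc most closely were Nr4a1 (r = 0.935 over 60 libraries), Junb (0.864), Fos (0.797), Dusp1 (0.797) and Egr2 (0.774). Those closest to Npas4 were Fos (0.672), Fosb (0.612), Tob1 (0.598), Fnbp4 (0.545) and Zcchc3 (0.541). Nr4a1, Junb, Fos, Fosb and Egr2 encode immediate-early transcription factors, Dusp1 a phosphatase of MAP kinases, and Tob1 an antiproliferative relative of Btg2.

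Other genes of the same pathway were counted in 4 lists. The shares of all genes to read them against are 19.9% lower and 19.1% higher with fluoxetine in Het mice, 4.08% and 4.35% with fluoxetine in WT mice, 0.5% and 0.483% with lithium in Het mice, and 9.87% and 9.34% with lithium in WT mice. Of 43 measured genes of the rapid primary response, 21 were lower and 5 higher with fluoxetine in Het mice (median log2 fold -0.25), and 15 lower and 1 higher in WT mice (-0.19). With lithium 1 was lower and 0 higher in Het mice (-0.10), and 9 were lower and 1 higher in WT mice (-0.19). The median of all genes tested was 0.00 in each. With fluoxetine in Het mice the transcription factor genes Egr1 (log2 fold -1.06, SE 0.116) and Nr4a3 (-0.85, SE 0.114) and the kinase gene Plk3 (-0.54, SE 0.070) were lower. The kinase gene Sgk1 (0.25, SE 0.063), Tiparp (0.45, SE 0.123) and Klf6 (0.25, SE 0.077) were higher there. With fluoxetine in WT mice Nr4a3 (-0.88, SE 0.114), Egr2 (-1.16, SE 0.188) and Fosl2 (-0.77, SE 0.128) were lower and Csrnp1 (0.47, SE 0.118) was higher. With lithium Nr4a3 was lower in Het mice (-0.43, SE 0.114), and Arl4d (-0.41, SE 0.089), Egr2 (-0.73, SE 0.188) and Junb (-0.49, SE 0.129) were lower in WT mice.

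Of 15 late-response and secreted products, 3 were higher and 3 lower with fluoxetine in Het mice, near the shares of all genes, and 1 was lower in WT mice. With lithium 1 was higher in Het mice, and 1 was higher and 2 lower in WT mice. The median log2 fold of the 15 was 0.11 and -0.15 with fluoxetine in Het and WT mice, and 0.04 and 0.09 with lithium. The granin gene Scg2 was higher with fluoxetine (0.36, SE 0.082) and lithium (0.33, SE 0.082) in Het mice, 2 comparisons that share their vehicle libraries. The neuropeptide precursor gene Vgf was lower with fluoxetine in Het mice (-0.46, SE 0.113) and higher with lithium in WT mice (0.35, SE 0.113). Gpr3, an orphan receptor that raises cyclic AMP, was lower with fluoxetine in both genotypes (-0.45 in Het and -0.28 in WT, SE 0.072 each), and Crh, encoding corticotropin-releasing hormone, was lower with lithium in WT mice (-0.50, SE 0.093).

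Of 31 partners and relatives of the 9 genes, 6 were higher and 11 lower with fluoxetine in Het mice, the higher ones near the share of all genes (19.1%), and 2 were higher and 2 lower in WT mice. With lithium 0 were called in Het mice, and 2 were higher and 1 lower in WT mice. The median log2 fold of the 31 lay between -0.04 and 0.01 in these 4 comparisons. The CREB coactivator genes Crtc1 (-0.31, SE 0.055) and Crtc3 (-0.38, SE 0.071), whose proteins Sik1 phosphorylates, were lower with fluoxetine in Het mice, and so was the related kinase gene Sik2 (-0.30, SE 0.059), which was also lower in WT mice (-0.36, SE 0.059). Grm5, the metabotropic receptor bound by Homer1, was higher with fluoxetine in Het mice (0.28, SE 0.052), as was the AMPA receptor gene Gria1 (0.23, SE 0.047). Klf11, the closest relative of Klf10, was higher with fluoxetine in both genotypes (0.27 in Het and 0.35 in WT, SE 0.069 each). In vehicle the 1 call between genotypes was Arnt, a partner subunit of Npas4, higher in Het mice (0.20, SE 0.050).

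Of 23 measured genes for upstream kinases, channels and transcription factors, 11 were higher and 6 lower with fluoxetine in Het mice, and 3 higher and 0 lower in WT mice. With lithium 1 was lower in Het mice, and 6 were higher and 3 lower in WT mice. The median log2 fold of the 23 lay between -0.01 and 0.08. With fluoxetine in Het mice and lithium in WT mice more of the called genes were higher than lower, and those higher there are not named here. Among the lower ones, Srf, the serum response factor gene, was lower with fluoxetine in Het mice (-0.48, SE 0.072) and with lithium in WT mice (-0.27, SE 0.072). Mapk3, encoding the kinase ERK1, was lower with fluoxetine in Het mice (-0.28, SE 0.056) and with lithium in Het (-0.27, SE 0.056) and WT mice (-0.22, SE 0.056). The L-type calcium channel genes Cacna1c (0.27, SE 0.074) and Cacna1d (0.21, SE 0.067) were higher with fluoxetine in WT mice. The Het fluoxetine values of these lists are given without the library term. They come from the same libraries low in pseudogenes, whose part in them was not tested list by list.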

How the data were processed

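The libraries were of polyadenylated RNA, made by the authors with a strand-specific TruSeq kit (per the labels' protocols). The submitters' processing notes list Salmon 0.11.2, DESeq2 1.19.11, R 3.6.0 and GRCm38 but not what each did, and the labels do not say whether strand was used in counting. The authors deposited 1 signal value per gene and library, called normalised read counts here. They were whole multiples of 1 step per library, and dividing by it gave whole reads (within 0.001) for 100% of values. No gene's exons overlap those of the 9.

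The test was limma 3.58.1 (R 4.3.3, trend and robust settings) on log2(value + 1) for the 17810 genes that reached 10 in 5 or more of the 60 libraries. The model had 12 group means and 48 residual degrees of freedom, and 18 contrasts were taken from it. Genes with a Benjamini-Hochberg adjusted p below 0.05 over all genes tested were called. Folds on this scale understate changes of low genes. A library counts as lower or higher by the other group's mean of its sex. Values given as 3 numbers are the lowest, median and highest of the group's libraries.

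Alternatives were edgeR 4.0.16 (quasi-likelihood test on the recovered reads, 17776 genes, 6910 of them called for fluoxetine in Het mice), trimmed mean of M values factors, no filter on low values (18083 genes), a pseudocount of 5, the compared groups alone, the replicate number as a block, and each library left out. GC correction subtracted a loess curve (span 0.3) on the GC content of the longest transcript. The library term marks 10 libraries low in 16 pseudogenes that differed over 4-fold between Het and WT fluoxetine libraries, so it was defined on that comparison. The Rps6-ps4 term marks 11 libraries with no read of that pseudogene. A last fit dropped the 3 libraries of largest residuals. The model was tested on simulated counts of independent libraries. The simulation held neither the set low in pseudogenes nor a GC trend, so it says nothing of results that depend on them.

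The 9 genes, the lists and the alternatives were chosen with earlier results of these data known. Named genes of a list are up to 3 called genes in each direction with the smallest p. Some genes that this takes are not reported here. Genes most like Arc or Npas4 are the 5 with the highest Pearson r of their deviations from the group means. Gene symbols and coordinates are from GENCODE M21 (GRCm38, 18077 of 18088 identifiers matched), and promoter sequences from RefSeq.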

Additional observations from a re-analysis of the deposited data

Results flagged for a closer look

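In 7 of 108 sets of 5 libraries (a gene in a genotype, drug and sex), 1 library was separated from its nearest neighbour by more than 0.71 of the whole range, where chance gives about 1 in 20 such sets. Gaps and ranges were taken on log2(value + 1), while the values printed beside them are normalised reads. Npas4 was at 1156.2 in Het lithium female replicate 3, a gap of 0.744 of the range, with the other 4 between 592.4 and 703.1. Npas4 was at 378.9 in WT lithium female replicate 1, a gap of 0.757, with the others between 619.3 and 725.1. Nptx2 was at 1455.0 in Het vehicle female replicate 2 (gap 0.733, others 1637.1 to 1709.0). Homer1 was at 7228.6 in WT vehicle male replicate 1 (gap 0.790, others 5388.1 to 5730.9).

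Klf2 was at 238.9 in Het fluoxetine male replicate 2 (gap 0.826, others 186.2 to 194.5), which is the highest Het fluoxetine value of that gene. Ier2 was at 114.5 in Het fluoxetine female replicate 5 (gap 0.739, others 153.2 to 169.7), 1 of the libraries without which the Ier2 call was lost. Btg2 was at 268.9 in Het vehicle female replicate 1 (gap 0.719, others 349.4 to 387.1).

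In 2 cases the difference between 2 effects itself passed the threshold in limma. For Nptx2 the fluoxetine effect was -0.34 apart (log2, Het minus WT), a call lost after GC correction (-0.13, adjusted p = 0.422), with the library term (-0.15, adjusted p = 0.908) and with the Rps6-ps4 term (-0.27, adjusted p = 0.418), where 12% of all genes were lower and 11.9% higher. For Homer1 the lithium effect in WT mice was -0.61 apart (log2, female minus male). That call was lost with the groups alone, after GC correction, with either term, without the 3 libraries of largest residuals and in 8 of 20 fits that left out 1 library.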

How the results depend on the processing

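With the trimmed mean of M values factors, no filter, a pseudocount of 5 or the replicate block, the count of called genes among the 9 stayed within 1.5 times in all 18 comparisons. For fluoxetine in Het mice the count was 6, and it was 0 with the library term and 1 with the Rps6-ps4 term. Over all genes that comparison had 6952 calls, 49 with the library term and 332 with the Rps6-ps4 term. For fluoxetine in WT mice it was 2, and 4 after GC correction. For Het against WT with fluoxetine it was 4, and 0 after GC correction, with the library term or with the Rps6-ps4 term. For fluoxetine against lithium in Het mice it was 4, with 1 after GC correction and 0 with either term. For fluoxetine against lithium in WT mice it was 2, and 1 with the groups alone or after GC correction. For the genotype difference in the fluoxetine effect it was 1, with 2 for the groups alone, edgeR and without the 3 libraries with the largest residuals, and 0 after GC correction or with either term. For the sex difference with lithium in WT mice it was 1, and 0 with the groups alone, GC correction, either term or without those 3 libraries. The cause of these changes was not tested.

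Leaving out 1 library gave 1 call in every fit for lithium in Het mice, 0 for Het against WT in vehicle or with lithium and for the genotype difference in the lithium effect, 5 to 7 calls for fluoxetine in Het mice, 1 to 3 in WT mice, 4 to 5 for lithium in WT mice, 4 to 5 for Het against WT with fluoxetine, 3 to 6 and 1 to 3 for the drugs against each other in Het and WT mice, 1 to 2 for the genotype difference in the fluoxetine effect, and 0 to 2 for the sex difference with lithium in WT mice. Of single genes whose fold was called, the sign turned for Ier2 with fluoxetine in Het mice (0.19 with the library term, 0.059 with the Rps6-ps4 term), in Het against WT with fluoxetine (0.12) and in Het fluoxetine against Het lithium (0.10), for Homer1 in Het against WT with fluoxetine (-0.054) and for Npas4 in Het fluoxetine against Het lithium (0.13), the last 4 with the library term. Of all folds compared, 38 of 990 under these alternatives and 49 of 2340 with 1 library left out changed sign without being called in either fit.

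Over all genes the calls numbered 6952 for fluoxetine in Het mice (49 to 7665 under the alternatives other than leaving out 1 library), 7042 for Het against WT with fluoxetine (7 to 7652), 5845 for Het fluoxetine against Het lithium (9 to 6655), 4272 for the fluoxetine interaction (8 to 5540), 3420 for lithium in WT mice (1313 to 4036), 2326 for WT fluoxetine against WT lithium (464 to 2583), 175 for lithium in Het mice (163 to 378), 105 for Het against WT in vehicle (48 to 241), 12 for the lithium interaction (6 to 47), 5 for Het against WT with lithium (0 to 8, the 8 with the replicate block) and 1716 for the sex difference with lithium in WT mice (0 to 1881). With 1 library left out they ran from 54 to 259 for lithium in Het mice, 17 to 132 for Het against WT in vehicle, 0 to 81 for Het against WT with lithium, 5 to 59 for the lithium interaction, 2650 to 4296 for lithium in WT mice, 1214 to 3131 for WT fluoxetine against WT lithium and 1 to 3276 for the sex difference with lithium in WT mice. Libraries that shared a replicate number did not deviate together as a whole. Over 330 such pairs the median r was -0.0026, against -0.0025 for pairs with other numbers. The range was -0.533 to 0.574, and 97 of the 330 were over 0.1. A median over all pairs cannot show whether some of them shared a litter or batch. With the replicate block fluoxetine in Het mice gave 6917 calls over all genes and 6 among the 9.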
